A study of Homo sapiens with 12 samples.

Results

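Tau carrying the S199E substitution (Tau-S199E) was compared with wild-type tau (Tau-WT) in SH-SY5Y, a human neuroblastoma cell line often used as a stand-in for neurons. The comparison used the 3 libraries of cells transfected with Tau-S199E (libraries 10, 11 and 12) and the 3 of cells transfected with Tau-WT (libraries 1, 2 and 3), chosen by construct, which is 6 of the 12 libraries of the series. All 1676 genes of the deposited table were used. Cells of both groups received a tau construct by transfection and were harvested 24 h later, so neither group shows cells without added tau. RNA from each was made into libraries with a kit that reads the 3′ end of polyadenylated transcripts, from 400 ng per library. The remaining libraries, of Tau-K174Q (a lysine replaced by glutamine) and of Tau-K174Q-S199E (both substitutions), entered the estimate of the spread between libraries and each gene's scaling, and are not compared here. The labels name neither the promoter of the constructs nor the share of cells transfected, and do not say whether libraries came from separate cultures. The p-values therefore set each difference only against the scatter of these libraries, part of which may be technical.

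Tau, the product of MAPT, binds microtubules and is phosphorylated at many serines and threonines. The serine replaced in Tau-S199E lies in the proline-rich region ahead of the microtubule-binding repeats and is one of the sites phosphorylated in the tangles of Alzheimer's disease. Glutamate carries a negative charge and is used to imitate a phosphorylated serine, although it does not have the shape or the full charge of a phosphate group. The title of the series links tau in the nucleus with protein synthesis, and this comparison asks what the phosphorylation mimic alone changes in the transcriptome.

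The authors standardised every gene over the 12 libraries, so each value is a number of SDs above or below that gene's own mean (SD units). A difference of group means cannot exceed 2.71 SD units on this scale when each group has 3 libraries, or 3.03 with 2 against 3, and it says nothing about fold change or abundance. Each gene of the table also has a fold change in the authors' deposited table, whose contrast the header does not name. Its sign was opposite to that of Tau-S199E minus Tau-WT in 1676 of 1676 genes. The listed genes were thus not chosen independently of this comparison, and the shares of genes called describe the listed genes only. As a check of the cell type, 26 defining genes of the adrenergic neuroblastoma state, such as DBH, were looked for and 0 were in the table, so the identity of the cells could not be read from it. MAPT itself did not differ past the threshold. Its values were 0.00, 0.85 and 0.11 with Tau-WT and -0.15, -0.38 and -1.44 with Tau-S199E, so that the groups did not overlap but came within a small distance of each other. The difference was -0.98 SD units (SE 0.73, adjusted p = 0.216) and -0.59 without library 12. Whether the 3′ reads of the endogenous gene also count the construct is not known, and the transfection is therefore not checked by these values.

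With Tau-S199E 809 genes rose and 700 fell, at an adjusted p under 0.05 in the ordinary linear model of limma over all 12 libraries. That is 90.0% of the table, 48.3% in the upward and 41.8% in the downward direction. Every listed gene already had a deposited adjusted p under 0.05 for the unnamed contrast. The calls and adjusted p-values given here thus test preselected genes again. They were partly fixed in advance and are no independent evidence of a change. One library stood apart. In the 886 genes with a higher mean in Tau-S199E, the median value was 0.60 in library 10, 0.61 in library 11 and 1.72 in library 12, against -0.93, -1.19 and -0.88 in the Tau-WT libraries. In the 790 genes with a lower mean it was -0.87, -0.62 and -1.59, against 0.91, 1.05 and 0.92. Library 12 was the Tau-S199E library furthest from the Tau-WT mean in 1433 genes (85.5%), library 10 in 116 and library 11 in 127. Library 10 lay on the other side of the Tau-WT mean in 3 genes, library 11 in 2 and library 12 in 2. Such agreement was largely fixed in advance. The direction is that of the mean of these 3 libraries, in genes not chosen independently of this comparison.

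Without library 12 the direction was kept in 1675 of 1676 genes, which the choice of genes also favours. The exception was NCBP1, a subunit of the nuclear cap-binding complex, which did not pass in either fit (-0.14 and 0.20 SD units). The size shrank: the median difference of the genes with higher means went from 1.99 to 1.63 SD units, and that of the genes with lower means from -1.99 to -1.70. The number of genes called fell to 833, of which 478 were higher and 355 lower, 49.7%, 28.5% and 21.2% of the table. Of these, 830 (49.5%) had also been called with all libraries, 475 higher (28.3%) and 355 lower (21.2%). The 3 genes called only without library 12 were NBPF9 and the pseudogenes PPIAP22 and RPL7P9. The Tau-S199E and Tau-WT libraries did not overlap in 1578 genes (94.2%), 846 of them higher (50.5%) and 732 lower (43.7%). Without library 12 there were 1585 (94.6%), 850 higher (50.7%) and 735 lower (43.9%). Leaving out a library can hardly create overlap, so this count says nothing of how far the result rests on library 12. In 239 genes all 3 Tau-S199E libraries also lay above the other 9 libraries of the series, and in 214 below them. The spread in the fit also came from library 18 of Tau-K174Q-S199E, which lay on the side of Tau-S199E. With libraries 12 and 18 both left out, 734 genes were higher and 597 lower. A call lost without library 12 alone can thus reflect the spread in the fit as well as a smaller difference. This holds for the lists below too. SLC50A1, for one, lost its call while its difference went from -1.84 to -1.91 SD units.

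**Figure D1:**
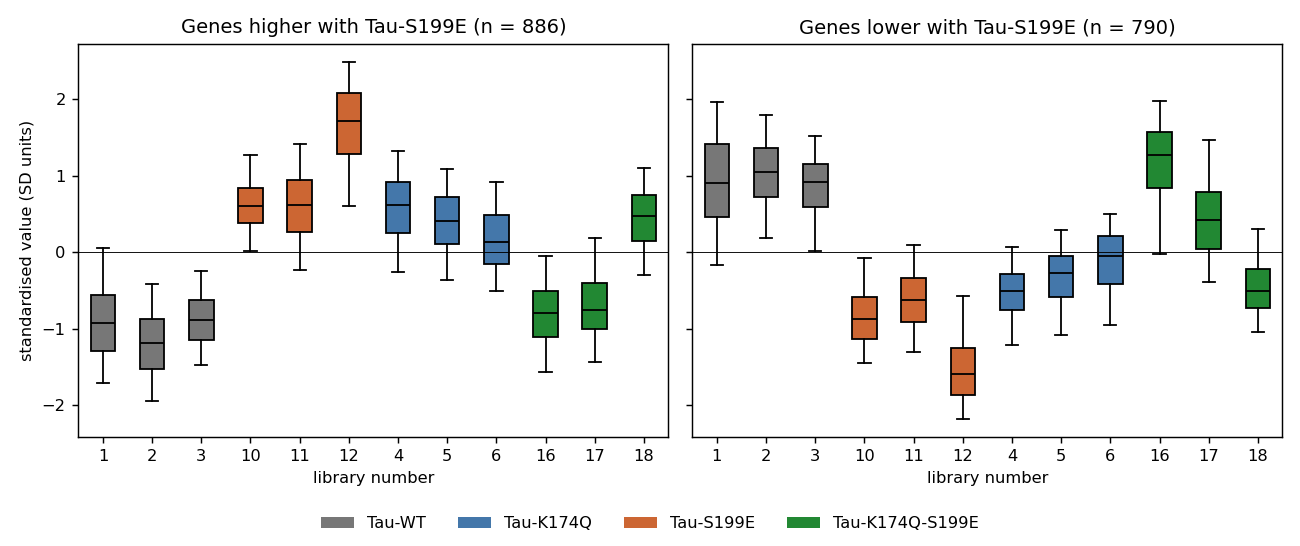
Standardised value (vertical axis, SD units) in each of the 12 libraries (horizontal axis, library number), for the 886 genes with a higher and the 790 with a lower mean in Tau-S199E than in Tau-WT. Boxes span the quartiles over genes with the median as a line, whiskers the 5th to 95th percentile. Library 12 is the most extreme of the Tau-S199E libraries, with medians of 1.72 and -1.59.

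**Figure D2:**
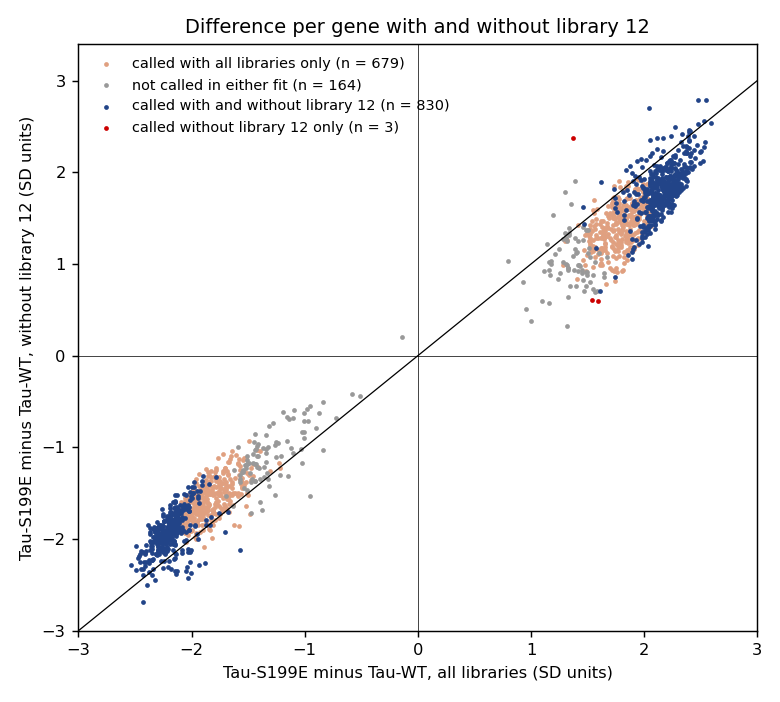
Difference between Tau-S199E and Tau-WT for each gene with all libraries (horizontal axis, SD units) and without library 12 (vertical axis, SD units), coloured by the call in either fit. The line marks equal differences, and most genes lie between it and 0, since the difference shrank without library 12.

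The genes below were ranked by their difference without library 12, among those called in both fits whose libraries did not overlap. This ranking favours genes in which library 12 lies nearest to Tau-WT and whose difference grows without it. The absence of overlap was required. MRPS34, a protein of the small subunit of the mitochondrial ribosome (chromosome 16, 1771890 to 1773155, minus strand, GRCh38), had the largest difference of all with library 12 included. Its values were -1.31, -1.44 and -0.81 with Tau-WT and 1.2, 1.51 and 1.51 with Tau-S199E. The Tau-S199E libraries were close together and far above all Tau-WT libraries, with a difference of 2.59 SD units (SE 0.25, adjusted p = 0.00677) and of 2.54 without library 12 (adjusted p = 0.00867). ATP2C1, the calcium and manganese pump of the Golgi (chromosome 3, 130850595 to 131016712, plus strand), had values of -1.19, -1.43 and -1.32 with Tau-WT and 1.21, 1.75 and 0.76 with Tau-S199E. Here library 12 was the lowest of the 3, and the difference rose from 2.55 to 2.79 SD units when it was left out. NECTIN2, a cell adhesion molecule, behaved alike with -0.91, -1.0 and -1.28 with Tau-WT and 1.90, 1.55 and 0.78 with Tau-S199E. In STON2, an adaptor of synaptic vesicle endocytosis, library 12 (-0.24) lay just above the highest Tau-WT library (-0.51), while libraries 10 and 11 stood at 1.89 and 1.59.

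OXA1L, an insertase of the inner mitochondrial membrane, stood at 1.62, 1.17 and 1.30 in libraries 10, 11 and 12 and between -1.56 and -0.93 with Tau-WT. Where values are set against each other from here on, libraries 10, 11 and 12 come first and Tau-WT libraries 1, 2 and 3 follow. PLCG2, a phospholipase of receptor signalling, stood at 1.36, 1.66 and 1.37 against -0.99, -1.07 and -0.99. RRM2, the regulatory subunit of ribonucleotide reductase, stood at 1.30, 1.43 and 1.15 against -0.57, -1.57 and -1.17. In these genes all 3 Tau-S199E libraries stood above 1 SD unit. PSMD5, an assembly factor of the proteasome, rose by 2.41 SD units (2.45 without library 12), the deubiquitinase gene USP38 by 2.39 (2.44) and CHPF2, an enzyme of chondroitin sulfate synthesis, by 2.27 (2.5).

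The largest fall without library 12 was that of HERC5, the interferon-induced ligase that attaches ISG15 (chromosome 4, 88457117 to 88506163, plus strand). Its values were 1.48, 1.57 and 0.41 with Tau-WT and -1.34, -1.74 and -0.74 with Tau-S199E, so that library 12 was again the closest to Tau-WT. The difference was -2.42 SD units (SE 0.39, adjusted p = 0.00968) and -2.69 without library 12 (adjusted p = 0.0191). GBP1, an interferon-induced GTPase, had values of 1.41, 1.56 and 1.22 with Tau-WT and -1.08, -1.02 and -0.67 with Tau-S199E, without overlap. AKR7A2, an aldehyde reductase, had values of 0.32, 1.25 and 1.02 with Tau-WT and -1.82, -1.44 and -1.33 with Tau-S199E, and all Tau-S199E libraries lay well below. Among the other genes of this ranking, LITAF, an endosomal membrane protein, fell by 2.43 SD units. The same ranking held the chromatin-binding coactivator gene PSIP1 (-2.35), the antisense transcript NR2F1-AS1 (-2.38), the stress granule deubiquitinase gene USP10 (-2.05) and ZNF318 (-2.0). RPL22, a protein of the large ribosomal subunit, stood at -1.06, -1.29 and 0.00 in libraries 10, 11 and 12, and its difference was -2.03 SD units with library 12 and -2.43 without it. Its paralog RPL22L1, named after the values were seen, rose by 2.21 (1.80 without library 12).

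**Figure D3:**
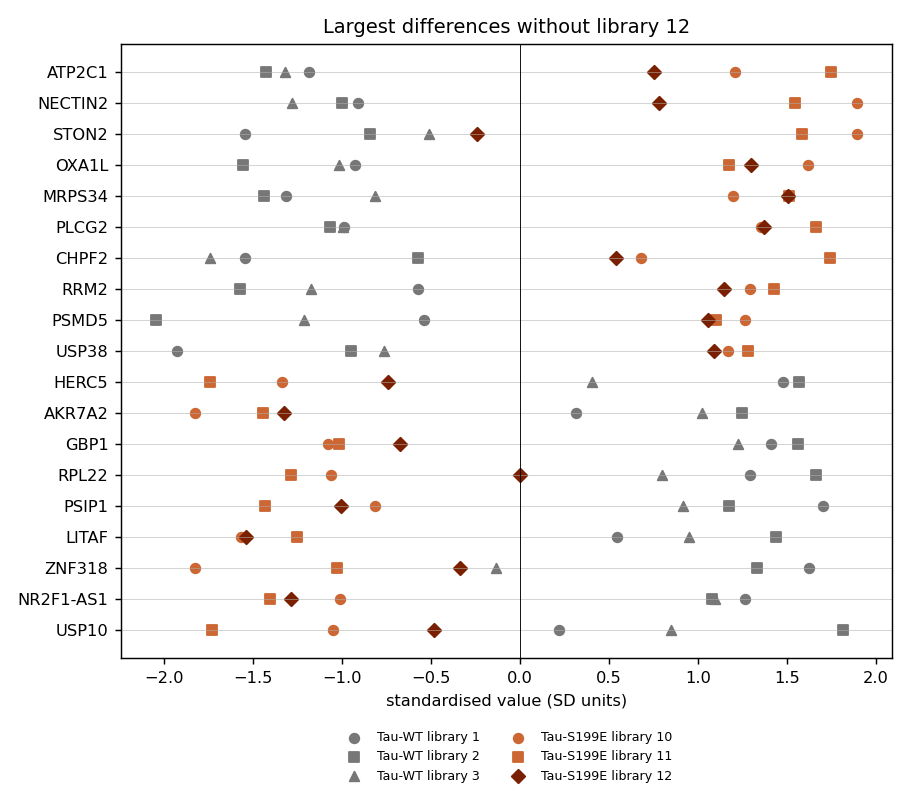
Standardised values (horizontal axis, SD units) in the Tau-WT libraries (grey) and the Tau-S199E libraries (orange, library 12 dark) for 10 genes with the largest rises and 9 of the 10 with the largest falls without library 12, 1 point per library. No gene plotted shows overlap between the groups, which the choice of genes required. Library 12 is nearest to Tau-WT in several of them, such as STON2, RPL22 and ZNF318, which the ranking favours.

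The promoters of MRPS34 and HERC5, the genes leading the rises with all libraries and the falls without library 12, are shown as RefSeq gives them for GRCh38.p14: 300 bases, from 250 before the start of the gene to 50 after it. MRPS34 is at chr16:1773085-1773384 on the minus strand and HERC5 at chr4:88456869-88457168 on the plus strand. Capitals mark matches on either strand to any of 8 motifs searched by their letters, spelled next. The TATA box was searched as TATAAA. The box bound by NF-Y was searched as CCAAT. The letters of the GC box were GGGCGG. Those of the ETS-type site were CCGGAAGT. The E-box was searched as CACGTG. For the CRE the search used TGACGTCA. Its shorter core, which every CRE contains, was TGACG. The eighth motif was the NRF1-type palindrome of 10 bases. MRPS34 held 2 GC boxes and 1 ETS-type site, and HERC5 held 3 GC boxes and 1 E-box.
MRPS34: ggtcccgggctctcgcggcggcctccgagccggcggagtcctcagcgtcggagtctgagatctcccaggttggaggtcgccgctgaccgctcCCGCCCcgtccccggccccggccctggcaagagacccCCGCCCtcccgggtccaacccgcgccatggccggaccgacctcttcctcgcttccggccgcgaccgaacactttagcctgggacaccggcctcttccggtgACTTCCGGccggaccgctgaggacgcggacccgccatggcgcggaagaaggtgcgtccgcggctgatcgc
HERC5: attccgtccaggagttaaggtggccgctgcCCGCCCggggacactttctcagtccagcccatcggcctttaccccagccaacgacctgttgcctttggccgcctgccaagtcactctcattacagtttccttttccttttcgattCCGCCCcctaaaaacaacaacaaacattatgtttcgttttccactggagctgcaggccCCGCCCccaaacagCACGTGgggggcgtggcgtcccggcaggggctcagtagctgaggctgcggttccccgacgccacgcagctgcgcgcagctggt
Promoters were found for 1301 of the genes by symbol, 630 of those that rose and 545 of those that fell. The motif shares of the 2 directions lay close together: the GC box was in 72.5% of the promoters of genes that rose and 73.6% of those that fell, the ETS-type site in 10.8% and 11.9%, the NRF1-type palindrome in 3.02% and 2.94%, and the E-box in 8.89% and 11.6%. The TATA box was in 6.67% and 4.04%, the CCAAT box in 38.3% and 37.2%, the CRE in 3.02% and 3.12% and its core in 37.1% and 39.3%. Among all 27305 promoters of the reference the GC box was in 44.6%, the ETS-type site in 4.44%, the NRF1-type palindrome in 1.36%, the E-box in 7.43%, the TATA box in 12.0%, the CCAAT box in 35.7%, the CRE in 1.98% and the CRE core in 25.0%. The median GC content was 65.3% for genes that rose, 67.0% for genes that fell and 58.3% for all promoters. In the 1301 promoters of the table the GC box was in 72.9% and the ETS-type site in 11.2%, and the median GC content was 66.0%. The excess over all promoters is thus shared by the listed genes at large. These are descriptions of letters, with no test.

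The respiratory chain passes electrons along complexes I to IV of the mitochondrial inner membrane, and ATP synthase uses the proton gradient they build. Of 33 nuclear-encoded genes of this list in the table, 26 rose and 5 fell with Tau-S199E, that is 78.8% and 15.2% against 48.3% and 41.8% of all genes. Of these 31 calls 25 were also made without library 12 (80.6%), among them 23 of the 26 rises. The median difference was 2.15 SD units, and 1.71 without library 12, where all genes had 1.41 and 0.96. The mean over the list was -0.32, -0.93 and -0.68 in the Tau-WT libraries and 0.44, 0.42 and 1.19 in libraries 10, 11 and 12, without overlap. In ATP synthase all 4 genes listed rose, by 2.08 to 2.31 SD units. All 6 listed genes with a COX symbol, of cytochrome c oxidase and its copper chaperone COX17, rose by 1.99 to 2.33. So did all 3 of complex III, by 2.12 to 2.43, and both of complex II. All of these were also called without library 12. The falls were all among the 18 genes with an NDUF symbol, most of them subunits of complex I and 1 its factor NDUFAF8. Of these 18 genes 11 rose, 5 fell and 2 did not pass. These subgroups were formed after the values were seen.

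COX7A2 of complex IV had values of -0.05, -1.65 and -1.65 with Tau-WT and 1.30, 1.13 and 1.2 with Tau-S199E, with a difference of 2.33 SD units (SE 0.48, adjusted p = 0.01) that was 2.33 without library 12. NDUFB1 of complex I had values of -0.54, -1.96 and -1.25 with Tau-WT and 1.18, 0.88 and 1.29 with Tau-S199E. In UQCRFS1, the iron-sulfur protein of complex III, library 12 stood apart at 2.13, with libraries 10 and 11 at 0.98 and 0.94 and Tau-WT at -0.97, -1.07 and -1.19. NDUFA8 rose by 2.41 (2.12 without library 12). Of the falls, NDUFA11 (-2.12, and -1.79 without library 12) and the assembly factor NDUFAF8 (-2.15 and -1.95) were called in both fits, whereas the core subunit gene NDUFV1 and the gene NDUFA5 were called only with library 12 (adjusted p without it 0.119 and 0.0709). The factors COX20 and SDHAF2, which assemble complexes IV and II and are not in the list, fell by 2.20 and 2.30. They were named after their values were seen. Not all such factors fell: the copper chaperone gene COX17, the insertase gene OXA1L (2.53) and the complex I factor gene TMEM126A rose.

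**Figure D4:**
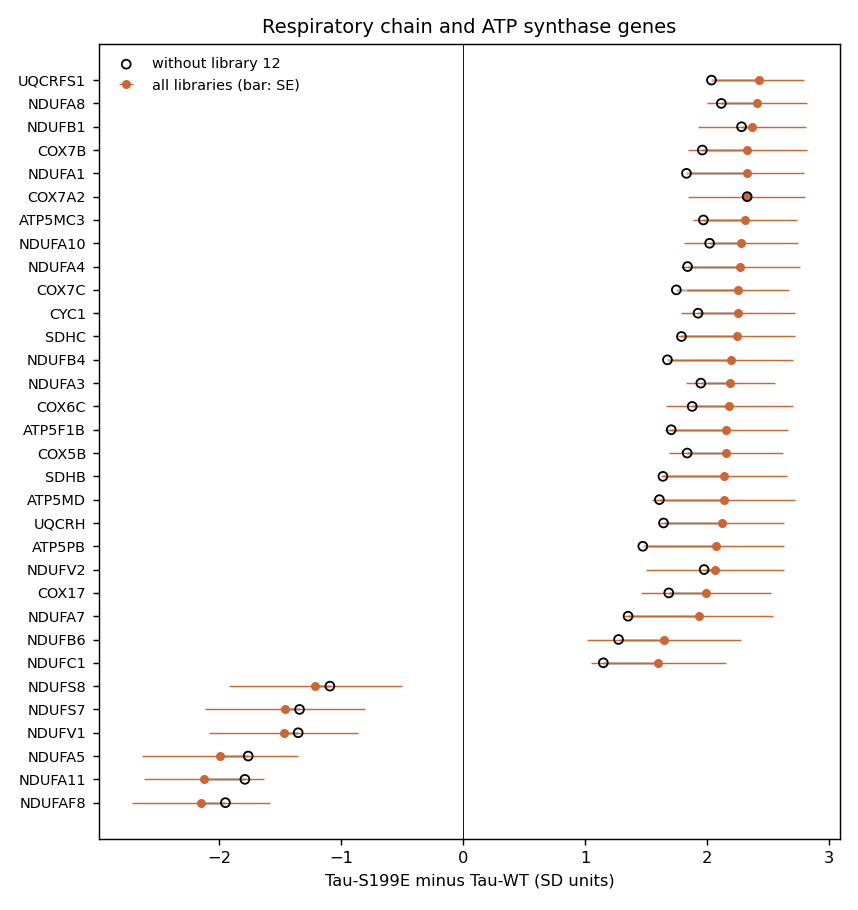
Difference between Tau-S199E and Tau-WT (horizontal axis, SD units) for 32 of the 33 nuclear-encoded respiratory chain and ATP synthase genes in the table. Filled points give the difference with all libraries with its SE as a bar, open points the difference without library 12. The 6 genes left of 0 carry an NDUF symbol, and no gene plotted changes side without library 12.

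NRF1 is a known activator of respiratory chain genes, and its palindrome was in 3 of 25 promoters matched for this list (12.0%, against 1.36% of all promoters and 3.07% of the 1301 in the table). They were those of COX17, NDUFA8 and NDUFB4, which all rose in both fits, as 23 of the 33 listed genes did. The ETS-type site was also in 3 of 25. The GC box was in 48.0% of these promoters, against 72.9% of those in the table. For the CCAAT box the shares were 20.0% and 38.7%. COX17 (chr3:119677357-119677656, minus strand) and NDUFA8 (chr9:122159730-122160029, minus strand, GRCh38.p14) are shown with the motifs in capitals as above, because they carry the palindrome.
COX17: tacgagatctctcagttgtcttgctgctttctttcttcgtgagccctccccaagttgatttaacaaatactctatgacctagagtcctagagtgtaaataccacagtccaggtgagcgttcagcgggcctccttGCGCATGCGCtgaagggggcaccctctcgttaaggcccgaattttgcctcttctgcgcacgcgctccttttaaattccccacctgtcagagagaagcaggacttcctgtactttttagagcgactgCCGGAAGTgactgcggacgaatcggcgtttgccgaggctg
NDUFA8: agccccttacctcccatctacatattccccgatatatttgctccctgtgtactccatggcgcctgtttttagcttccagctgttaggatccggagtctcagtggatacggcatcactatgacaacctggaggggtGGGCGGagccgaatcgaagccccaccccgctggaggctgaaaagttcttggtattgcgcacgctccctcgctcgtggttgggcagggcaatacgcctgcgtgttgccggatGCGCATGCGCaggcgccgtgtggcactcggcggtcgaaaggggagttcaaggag
In COX17 an ETS-type site follows the palindrome, and in NDUFA8 a GC box precedes it. A match gives no measure of binding.

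Of 24 genes of the mitochondrial ribosome 16 rose and 7 fell (66.7% and 29.2%, against 48.3% and 41.8% of all genes). Without library 12, 13 of the 23 calls were also made. AURKAIP1 stood at 1.03, 1.37 and 1.94 in libraries 10, 11 and 12 against -0.82, -1.57 and -0.86 with Tau-WT, and MRPL36 and DAP3 rose by 2.29 and 2.19, whereas MRPL12 (-2.36) and MRPS18B (-2.26) fell. Of the 21 import and carrier genes 10 rose and 9 fell, close to the shares over all genes. The import receptor gene TOMM20 had values of -1.45, -1.27 and -1.44 with Tau-WT and 0.88, 1.01 and 1.57 with Tau-S199E, with no overlap. SMDT1, a small subunit of the calcium uniporter, rose by 2.49 (2.23 without library 12). The oxoglutarate carrier gene SLC25A11 (-2.28), GRPEL1, a cofactor of the import motor (-2.27), TIMM8B (-2.12) and CHCHD2 (-2.33) fell, all in both fits. Of the carriers of the SLC25 family 3 rose and 4 fell, and of these calls only 3 of the falls were made without library 12. Of the 3 transcripts of the mitochondrial genome, MT-CO2 stood at 1.16, 1.2 and 1.33 in libraries 10, 11 and 12 against -0.13, -2.15 and -1.22, and MT-ND5 at -0.96, -0.66 and -1.53 against 1.76, 0.75 and 0.76. The first rose and the second fell, both in both fits, and MT-CO3 rose by 2.24 (2.14 without library 12).

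Over all 1676 genes the median difference was 1.41 SD units, since more genes rose than fell. Of all genes 48.3% rose and 41.8% fell, and 28.5% and 21.2% were called without library 12. The counts of rises and falls in each list below are to be read against these shares. Medians above it were those of the 3 mitochondrially encoded transcripts (2.24), the respiratory chain (2.15), the cytosolic ribosomal proteins (1.99), nuclear transport (1.94), the phosphatases (1.88) and the mitochondrial ribosome (1.80). The proteasome (1.72), the endoplasmic reticulum and glycosylation (1.61), membrane trafficking (1.58), the cytoskeleton (1.57), the pseudogenes (1.57) and mitochondrial import (1.56) also lay above it. Splicing genes were at the same value of 1.41. Transporters (1.26), ubiquitin genes (1.32) and the helicase, polymerase and nucleolar genes (1.21) were lower, and zinc finger genes (0.16), apoptosis genes (0.06) and translation factors (-0.03) lay near 0. Kinases (-1.65), chromatin genes (-1.47) and the host and antisense RNA genes (-1.76) had negative medians. The median was 1.99 SD units in genes with higher means and -1.99 in genes with lower means. A list's median therefore mostly follows its split between rises and falls. A value near 0 marks an even split and not small changes: of 30 zinc finger genes 15 rose and 14 fell.

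**Figure D5:**
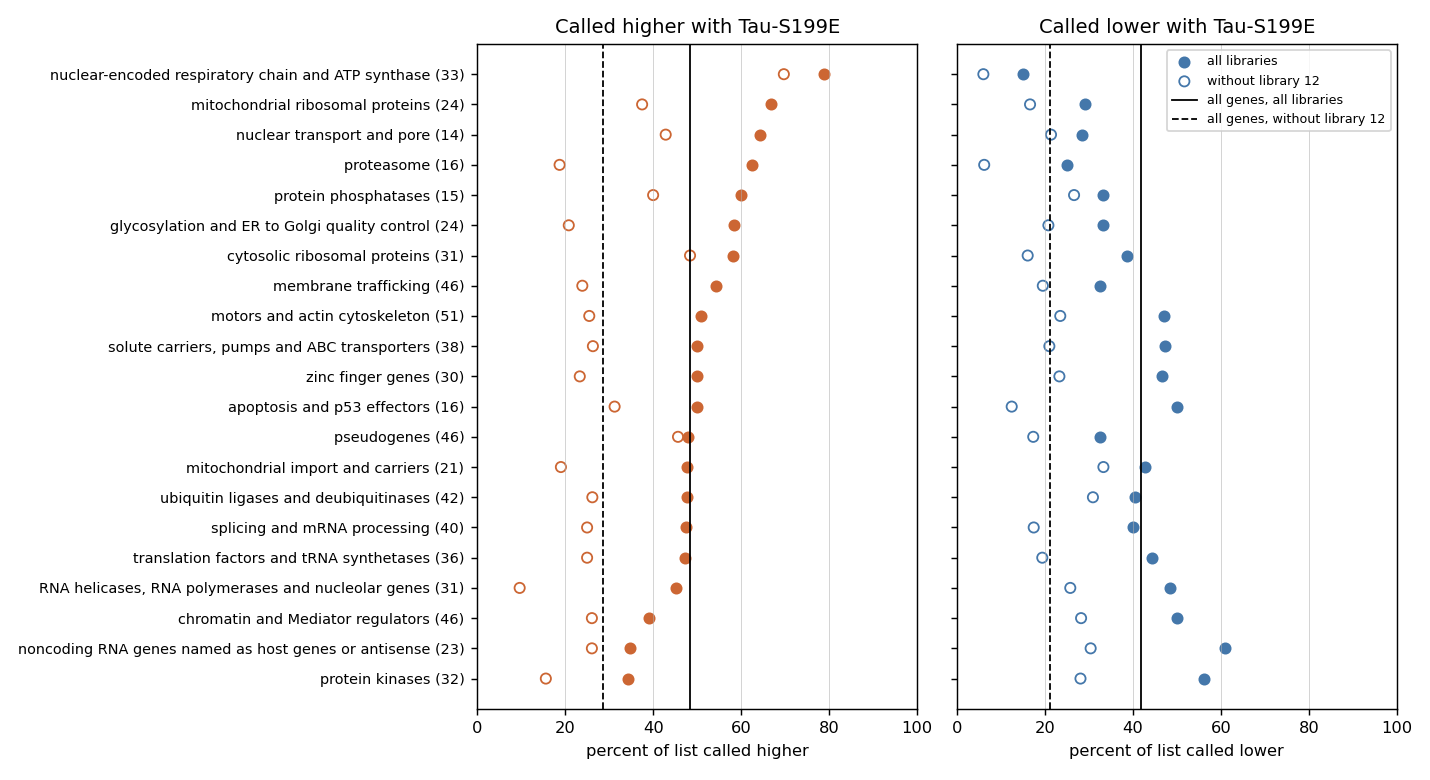
Percent of the genes of each list called higher (left) and lower (right) with Tau-S199E (horizontal axes, percent), with the number of genes in brackets. Filled points are from the fit with all libraries, open points without library 12, and the vertical lines give the share over all 1676 genes (48.3% and 28.5% higher, 41.8% and 21.2% lower). The respiratory chain list lies furthest to the right among genes that rose.

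In the protein synthesis lists the directions were mixed. Of 31 cytosolic ribosomal protein genes 18 rose and 12 fell (58.1% and 38.7%, against 48.3% and 41.8% of all genes). Without library 12, 15 of the rises and 5 of the falls were called. RPS29 had values of -0.75, -1.83 and -0.85 with Tau-WT and 0.88, 0.79 and 1.73 with Tau-S199E. RPLP0 of the ribosomal stalk stood at -1.30, -0.93 and -1.49 in libraries 10, 11 and 12 against 1.73, 0.79 and 1.0 with Tau-WT. Neither gene showed overlap. In RPL31, Tau-WT library 1 lay nearer to Tau-S199E than libraries 2 and 3 (0.10, -2.36 and -1.09 in libraries 1, 2 and 3). Of 36 translation factor and tRNA synthetase genes 17 rose and 16 fell, close to the share over all genes. Within them 5 of 7 subunits of the initiation factor EIF3 fell, EIF3D with a difference of -2.36 SD units (-2.07 without library 12), while EIF3E and EIF3M rose and lost their calls without library 12. Of 7 genes with an EIF1 or EIF4 symbol 6 rose. The 7 include EIF4EBP2, an inhibitor of initiation, and EIF4A3 of the exon junction complex. EIF4G1, the scaffold of cap binding, stood at 0.50, 1.53 and 1.60 against -0.21, -1.73 and -1.06. EIF1 had a difference of 2.36 and EIF4H of 2.30. EIF4E2, a cap-binding protein that represses translation, fell (-2.36, and -1.95 without library 12), as did EIF2A (-2.15 and -2.21). These family counts were made after the values were seen.

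Of 31 genes of RNA helicases, RNA polymerases and the nucleolus 14 rose and 15 fell (45.2% and 48.4%, against 48.3% and 41.8% of all genes). Without library 12, 3 of these rises and 8 of the falls were called, where the whole table kept 475 of 809 and 355 of 700. EXOSC10, the nuclear exosome's nuclease, had values of -0.37, -2.17 and -0.90 with Tau-WT and 1.02, 1.06 and 1.30 with Tau-S199E, and UTP6 rose by 2.08 (1.74 without library 12). RRP36 (-2.21), the helicase gene DDX27 (-2.25), the nucleolar chaperone gene NOLC1 (-2.29) and POLR3D, a subunit of RNA polymerase III (-1.95), fell in both fits. Of 9 RNA polymerase genes 5 rose, and 0 of these 5 rises was called without library 12 (POLR2H, adjusted p = 0.0511).

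Splicing and mRNA processing genes followed the table at large, with 19 of 40 higher and 16 lower (47.5% and 40.0%), and 17 of the 35 calls made without library 12. SNRNP70 of the U1 particle had values of -1.39, -1.13 and -1.0 with Tau-WT and 0.63, 1.23 and 2.09 with Tau-S199E. SNRPA, another protein of the same particle, stood at -1.56, -0.51 and -1.93 in libraries 10, 11 and 12 against 0.33, 1.37 and 1.23 with Tau-WT. The 2 genes thus went apart without overlap. SNRPG (2.29), LSM4 (2.21) and HNRNPL (2.11) rose, and RBM28 (-2.41) and SF3B5 of the U2 particle (-2.29) fell, all also without library 12. U2AF1, which recognises the 3′ splice site, stood at -1.2, -0.99 and -1.09 against 0.73, 0.84 and 0.92. Its difference was -1.923 SD units with all libraries (SE 0.66, adjusted p = 0.0267). Without library 12 it was -1.925 (SE 0.79) and did not pass (adjusted p = 0.0677), although its libraries did not overlap. The call was thus lost through the larger SE and not through a smaller difference. A near-identical copy, U2AF1L5, is also in the table and was called in the opposite direction, so both values are uncertain where reads could be split between the copies.

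Of 46 chromatin and Mediator genes 18 rose (39.1%, against 48.3% of all genes) and 23 fell (against 41.8% of all genes), and 25 of the 41 calls were made without library 12, where the table kept 830 of 1509. All 3 SWI/SNF and ISWI genes of the SMARC family fell in both fits, with differences of -2.32 to -2.16 SD units. This family was grouped after the values were seen. Of 4 CHD genes 1 rose, 2 fell and 1 did not pass. CHD3, a remodeller of the NuRD complex, had values of 0.60, 0.99 and 1.75 with Tau-WT and -1.08, -0.58 and -1.75 with Tau-S199E. CREBBP, the acetyltransferase CBP named in the title of the series, fell by 2.10 (-1.62 without library 12), and the only sirtuin gene in the table, SIRT5 of the mitochondria, rose by 1.46 and was not called without library 12 (adjusted p = 0.159). Both were named after their values were seen. BAZ1B (-2.17), the histone chaperone gene ANP32E (-2.09) and the Mediator gene MED24 (-2.15) fell. PHF13 stood at 0.68, 1.66 and 1.59 against -1.09, -1.28 and -0.81, and PHF5A (2.22), JMJD6 (2.25) and MBD6 (2.16) also rose. PHF5A was matched by its symbol and is a subunit of the splicing complex SF3b. Of 30 zinc finger genes 15 rose and 14 fell, with ZNHIT3 at 2.52 and ZBTB33, which encodes the methyl-CpG reader Kaiso, at 2.06, and ZC3H6 at -2.14 and ZNF346 at -2.24. This list was matched by symbol and holds 3 ZDHHC genes, which encode palmitoyltransferases and all rose.

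Importins and exportins carry proteins and RNA through the nuclear pore. Of 14 genes of carriers and of the pore 9 rose and 4 fell (64.3% and 28.6%, against 48.3% and 41.8% of all genes). Without library 12, 6 and 3 were called. RAN, the GTPase that sets the direction of transport, had values of -0.34, -1.72 and -1.14 with Tau-WT and 0.76, 1.13 and 1.92 with Tau-S199E, and its exchange factor RCC1 rose by 2.13 (1.76 without library 12). KPNA2 stood at 0.87, 0.95 and 1.92 against -0.65, -1.40 and -1.17, whereas KPNA1 stood at -0.73, -1.50 and -1.2 against 0.68, 1.66 and 1.04. These importins alpha changed in opposite directions without overlap, and the remaining one, KPNA6, fell with all libraries (-1.80) and was not called without library 12 (-1.42, adjusted p = 0.0806). XPO5, the exporter of microRNA precursors, rose (2.09) and TNPO1 (-2.29) and XPO4 (-2.16) fell, all in both fits. The mean over the list was -0.52, -0.36 and -0.34 with Tau-WT and 0.16, 0.03 and 0.99 in libraries 10, 11 and 12, so library 12 lay far above the other 2.

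Of 46 membrane trafficking genes 25 rose and 15 fell (54.3% and 32.6%, against 48.3% and 41.8% of all genes). Without library 12, 20 of the 40 calls were made. RAB2A, a GTPase of traffic between endoplasmic reticulum and Golgi, had values of -0.53, -0.76 and -0.48 with Tau-WT and 0.93, 1.86 and 1.76 with Tau-S199E. TRAPPC3 of the TRAPP tether rose by 2.22 and VPS37A of the ESCRT-I complex by 1.98, which was 2.05 without library 12. Both RAB5 genes of early endosomes fell, RAB5A at -1.06, -1.07 and -1.32 in libraries 10, 11 and 12 against 1.77, 0.66 and 0.56 and RAB5C (-2.16). RAB29 (-2.09), ARL2 (-2.22), a GTPase of tubulin folding, and SEC61A1, the pore of the translocon (-2.26), fell in both fits, while 6 of 7 genes with a SEC symbol rose. Of 24 genes of the endoplasmic reticulum and glycosylation 14 rose and 8 fell (58.3% and 33.3%). DDOST of the oligosaccharyl transferase stood at 0.82, 1.47 and 0.23 against -0.51, -1.74 and -1.37, so its difference rose from 2.05 to 2.35 without library 12. MOGS (2.24) and SPCS1 (2.07) rose, and SRP72 of the signal recognition particle (-2.02) and the chaperone gene HSPA5 (-2.38) fell. The pattern for this list also took in GPI, a glycolytic enzyme, which fell (-2.12).

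Of 38 solute carriers, pumps and ABC transporters 19 rose and 18 fell, and 18 of the 37 calls were made without library 12. The symbol pattern also took in SLC2A4RG and ABCF1, which are not transporters. Besides ATP2C1, the rises included ATP2A2, the calcium pump of the endoplasmic reticulum, with values of -1.47, -0.90 and -1.34 with Tau-WT and 0.58, 0.60 and 1.82 with Tau-S199E, in which library 12 stood highest. SLC35A2, which brings UDP-galactose into the Golgi, rose by 2.14 and ATP6V1E1 of the proton pump by 2.27. Of 5 SLC35 genes 4 rose. SLC52A2, a riboflavin transporter, fell (-2.26), as did the glutamine transporter gene SLC38A5 (-2.07), both in both fits. SLC50A1 fell with all libraries (-1.84), and without library 12 its difference was -1.91 but was not called (adjusted p = 0.0756).

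Protein kinase genes fell more often than they rose: 18 of 32 were lower and 11 higher (56.2% and 34.4%, against 41.8% and 48.3% of all genes), and 9 and 5 were called without library 12. The symbol pattern also took in AURKAIP1, GSKIP and PIMREG, which are no kinases and rose, and PRKAG1, a regulatory subunit, which fell. AKT1 had values of -2.0, -1.35 and -0.99 with Tau-WT and 0.90, 0.68 and 0.58 with Tau-S199E, with the Tau-S199E libraries close together. MARK2, a kinase that phosphorylates tau in its repeats, stood at -1.34, -0.82 and -2.17 against 0.70, 0.83 and 1.07. AURKB of mitosis fell by 2.49 SD units. PRKD2 (-2.14), MAP4K4 (-2.20) and the protein kinase A subunit gene PRKACA (-2.27) fell as well, all in both fits. The checkpoint kinase gene CHEK2 rose by 2.02. Of 15 phosphatase genes 9 rose and 5 fell (60.0% and 33.3%, against 48.3% and 41.8% of all genes). Without library 12, 10 of the 14 calls were made. PTPRF, a receptor phosphatase of neurites, had values of -0.84, -1.38 and -1.42 with Tau-WT and 1.02, 1.01 and 1.83 with Tau-S199E. PPP2R1A, the scaffold of the tau phosphatase PP2A, rose (2.16, and 2.05 without library 12), whereas PPME1, which removes the methyl group of its catalytic subunit, stood at -0.79, -0.95 and -1.52 against 1.07, 1.38 and 1.18, and the regulatory subunit gene PPP2R5E fell by 2.11. The catalytic subunits of PP1 split, with PPP1CA lower (-2.14) and PPP1CC higher (2.22). PPM1B rose by 2.41 and PTP4A1 fell by 2.21.

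Of 42 genes of ubiquitin ligases and deubiquitinases 20 rose and 17 fell, and 24 of the 37 calls were made without library 12. SKP2, which marks cell cycle inhibitors for degradation, had values of -1.23, -1.79 and -0.76 with Tau-WT and 0.88, 0.63 and 1.18 with Tau-S199E. TRIM11 stood at -1.41, -0.65 and -1.90 against 1.72, 0.88 and 0.74. Of 6 genes of ubiquitin-specific proteases 5 fell and USP38 rose. KLHL12 rose by 1.89 and UBE2R2 by 2.23, and RNF220 fell by 2.22. Of 16 proteasome genes 10 rose and 4 fell (62.5% and 25.0%, against 48.3% and 41.8% of all genes). Without library 12, 3 and 1 were called, so 28.6% of the calls were left where the whole table kept 830 of 1509. PSMB6, a catalytic subunit, had values of -0.99, -0.57 and -0.83 with Tau-WT and 1.36, 0.95 and 2.28 with Tau-S199E, PSMD11 rose by 2.15 and the assembly factor PSMG4 fell by 2.25. PSMB3 (adjusted p = 0.0564) and PSMD4 (0.0753) did not pass without library 12. Of 16 apoptosis and p53 genes 8 rose and 8 fell, of which 5 and 2 were called without library 12. BAK1, which opens the outer mitochondrial membrane, stood at -1.52, -0.46 and -1.86 against 0.90, 1.26 and 1.36, and MCL1, which binds and blocks it, at 0.77, 0.76 and 1.34 against -1.16, -1.03 and -1.26. The death receptor gene TNFRSF10A fell by 2.38 and GADD45B rose by 2.37. PDCD11, matched by its symbol, is a ribosome biogenesis factor and rose by 2.15.

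Of 51 genes of motors, microtubules and the actin cytoskeleton 26 rose and 24 fell, and 25 of the 50 calls were made without library 12. The symbol pattern also took in DCTN6-DT, a divergent transcript. The actin-binding proteins split by family, as grouped after the values were seen. All 4 thymosin and profilin genes, which bind actin monomers, rose in both fits, by 1.98 to 2.23 SD units with all libraries, TMSB4X with values of -1.41, -1.22 and -1.19 with Tau-WT and 0.68, 0.64 and 1.54 with Tau-S199E. All 3 tropomyosin genes, which coat filaments, fell, with differences of -2.37 to -2.02, and TPM1 was not called without library 12 (adjusted p = 0.0587). ACTG1 rose (2.21) and ACTB fell (-1.96), the latter not called without library 12 (adjusted p = 0.0609). FLNA, which crosslinks filaments, stood at -1.74, -0.61 and -1.54 against 0.79, 1.23 and 0.95, and CORO2A (-2.41) and RDX (-2.14) also fell. ACTN4 (2.35), DPYSL3 (2.19) of growth cones and ACTR5 (2.41), an actin-related protein of the INO80 chromatin remodeller, rose. The gamma tubulin complex genes TUBGCP2 and TUBGCP5 and the delta tubulin gene TUBD1 fell in both fits, with differences of -2.26 to -1.90.

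Of 45 genes that are neither protein-coding nor pseudogenes 13 rose and 27 fell, where 48.3% of all genes rose and 41.8% fell. Without library 12, 11 were higher and 12 lower, where the table had 28.5% and 21.2%. Of the 13 genes named as antisense or divergent transcripts 10 fell and 2 rose. These 13 were matched by symbol and not by gene type, so they can include protein-coding genes. NR2F1-AS1 had values of 1.27, 1.08 and 1.10 with Tau-WT and -1.01, -1.41 and -1.28 with Tau-S199E, and FGD5-AS1 (-2.15) and NCBP2-AS2 (-2.19) fell as well. The kit's strand setting in the counting is not given in the sources used here, so reads of an antisense gene and of its partner may be mixed. Among 7 host genes of small nucleolar RNAs 5 rose and 2 fell, SNHG5 with 1.45, 0.55 and 1.28 in libraries 10, 11 and 12 against -0.52, -1.64 and -1.27 and SNHG29 with -1.19, -0.95 and -0.99 against 1.44, 0.96 and 0.89. Of 46 pseudogenes 22 rose and 15 fell, with 19 and 8 of these called without library 12. Their reads can come from the parent genes, so these values are uncertain.

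Markers of other cell states were few. Of 32 genes of the mesenchymal, substrate-adherent neuroblastoma state 3 were in the table, and CD44, S100A6 and SNAI2 all rose. CD44 had values of -0.58, -0.92 and -0.92 with Tau-WT and 0.88, 1.0 and 2.02 with Tau-S199E, and the mean over the 3 genes was -0.76, -1.32 and -1.02 with Tau-WT and 0.64, 0.66 and 1.83 in libraries 10, 11 and 12. SNAI2 was not called without library 12 (adjusted p = 0.0609). LUM, the only gene of 10 fibroblast and matrix markers in the table, stood at 0.84, 0.06 and 2.34 against -0.85, -1.41 and -0.61. Whether a different mix of cells takes part in the other differences was not tested. In bulk RNA, more cells of a state and more RNA per cell cannot be told apart. Of 37 genes of the interferon response 4 were in the table. HLA-B stood at 1.47, 0.80 and 1.32 and B2M at 1.0, 0.35 and 1.98 in libraries 10, 11 and 12, and both rose, while HERC5 fell. GBP1, which is outside this list, fell too. IFITM1 did not pass (1.32 SD units, adjusted p = 0.131). The early response genes JUNB, DUSP2 and the heat shock gene HSPA1A rose by 1.77, 1.99 and 1.84 with all libraries, and 0 of the 3 were called without library 12 (adjusted p from 0.0593 to 0.0791).

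The next genes are those called with all libraries whose difference shrank most without library 12, 5 in each direction. JKAMP, a membrane protein of the endoplasmic reticulum, had values of -0.76, -0.58 and -0.68 with Tau-WT and 0.45, -0.17 and 2.92 with Tau-S199E, and its difference went from 1.74 to 0.81 SD units. TMEM126A, a factor of complex I assembly, stood at 0.41, 0.09 and 2.92 in libraries 10, 11 and 12, the lysosomal protease gene CTSL at 0.32, -0.03 and 2.78, SFT2D1 at 0.26, -0.40 and 2.58 and PIP4P2 at 0.67, -0.21 and 2.89. In each of these, libraries 10 and 11 were close to the gene's mean and library 12 far above. The falls shrank less, STAU2, which encodes an RNA-binding protein, from -1.76 to -1.11 SD units. It stood at -0.45, -0.80 and -2.58 against -0.41, 1.09 and 0.79, so that library 10 lay just below Tau-WT library 1 without overlap. MAP2K7 stood at 0.08, -0.95 and -2.35 and ABCA7, a lipid transporter, at -0.25, -0.52 and -2.29, and neither was called without library 12 (adjusted p = 0.0609 and 0.059). NMT2, whose library 11 (0.30) lay above Tau-WT library 1 (0.28), was not called either (0.114), while CETN3 of the centrosome was (0.0316). Over the whole table, the difference without library 12 was under 0.5 of that with all libraries in 15 genes (0.895%) and as large or larger in 118 (7.04%).

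In the authors' deposited table the largest fold changes among genes that rose were those of SGCE, which encodes epsilon-sarcoglycan (log2 fold change -7.11), CASP9, the initiator caspase of the apoptosome (-4.91), the water channel gene AQP3 (-4.66), GNAI1 (-4.56) and UCKL1 (-4.49). These folds belong to the unnamed contrast. SGCE had values of -1.33, -1.19 and -1.15 with Tau-WT and 0.90, 0.23 and 2.13 with Tau-S199E, without overlap, whereas CASP9 was not called without library 12 (adjusted p = 0.0919). Among genes that fell they were those of U2AF1 (7.71), TMEM160 (5.05), GCHFR (4.45), CBWD6 (3.89) and C19orf70 (3.28) in the authors' deposited table, and 0 of these 5 were called without library 12. For U2AF1 the difference itself hardly changed, as given above. TMEM160 stood at 2.82, -0.14 and 0.07 with Tau-WT, so library 1 alone stood high. At the threshold, PI4K2B (adjusted p = 0.05) and ZNFX1 (0.0496) were just inside and MRPS14 (0.0501) and PIP5K1A (0.0504) just outside.

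The authors' 4 clusters differed in how far they kept their calls. In cluster 4, 521 of 533 genes rose and 378 were called without library 12 (97.7% and 70.9%), and in cluster 1, 527 of 535 fell and 317 were called without it (98.5% and 59.3%). In cluster 3, 288 of 353 rose and 100 were called without library 12 (81.6% and 28.3%), and in cluster 2, 173 of 255 fell and 38 were called (67.8% and 14.9%). The clusters were made from these values, so their directions are a description. Along the genome, chromosome 19 had 34 genes higher and 63 lower of 106 (32.1% and 59.4%, against 48.3% and 41.8% of all genes). Without library 12 it had 23 higher and 27 lower, where the table had 28.5% and 21.2%. Chromosome 3 had 47 higher and 26 lower of 81 (58.0% and 32.1%). No test was made of these shares.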

How the data were processed

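The deposited table gives 1 standardised score per gene and library, which the authors made by scaling each gene to a mean of 0 and an SD of 1 over 12 libraries, as the values show. It also gives the authors' log2 fold change, adjusted p-value (all deposited p-values at most 0.0499) and cluster, for a contrast the file headers do not name. STAR 2.5.3a, RSEM 1.2.31, DESeq2 and GRCh38 are named in the submitters' processing notes, and depth cannot be read from the scores. Here limma 3.58.1 (R 4.3.3) fitted 1 mean per construct over 12 libraries with the ordinary residual variance of each gene, two-sided, with Benjamini-Hochberg adjustment over 1676 genes and a threshold of 0.05, and again without library 12. The fit was tested on simulated data. A permutation of 3 against 3 libraries cannot give a p below 0.1. Libraries were named by construct and library number. Gene identifiers were matched to GENCODE 29 (1676 of 1676) and symbols to 1659 genes. The genes named are the 10 in each direction with the largest difference without library 12 among those called in both fits without overlap, the largest of each list, those most reduced without library 12, those with the largest deposited fold changes and those next to the threshold. A few genes are not reported here. Genes marked as named after their values were seen fall outside this rule. Counts of gene families within the lists were made after the values were seen. Members and lists were chosen with earlier results of these data known. Alternatives were other variance estimates, array weights, group medians, the 6 libraries alone and leaving out each library.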

Additional observations from a re-analysis of the deposited data

How the results depend on the processing

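Leaving out each of the 6 libraries in turn gave 478 to 761 genes higher and 355 to 641 lower, and the lowest counts were those without library 12. Without Tau-WT library 2 there were 572 and 484. The 6 libraries alone gave 612 and 595, limma's moderated variance 881 and 769, and array weights 833 and 725. Leaving out library 18, chosen after seeing the data, gave 845 and 727. Genes without overlap numbered 850 higher and 735 lower without library 12. Of the 210 genes checked singly, 0 reversed under these settings or with group medians, under which PHF5A alone moved by more than the spread between libraries (to 2.55 SD units). Of these genes 40 lost their call without library 12, against 7 to 32 without any other single library of the pair of groups. No paired analysis was possible because the columns carry a library number and a code, not the labels' replicate number. Other normalisations, pseudocounts and filters on low values were not run, since the scores are already standardised. They carry no abundance, so what depth limits cannot be stated.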
